A study of Rattus norvegicus with 8 samples.

Results

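The genes examined here encode 10 neuropeptides of the nerve fibres that reach the *substantia nigra* (SN) from the striatum and of neurons in the midbrain itself: *Tac1*, *Pdyn*, *Penk*, *Nts*, *Sst*, *Npy*, *Vip*, *Gal*, *Crh* and *Adcyap1*. The members are all probes, other than controls, whose RefSeq accession on the array maps to 1 of these rat symbols. This gave 13 probes for 10 genes, among 16678 genes that the table of accessions names on the array. RNA came from the SN on the injected side of female Sprague Dawley rats 20 weeks after unilateral surgery, with 4 arrays from rats given AAV-αSyn and 4 from rats given AAV-Null. Both are adeno-associated virus vectors of serotype AAV6, injected into the SN at 3 months of age. AAV-αSyn carries wild-type human α-synuclein and AAV-Null is the null control. The study asked how excess α-synuclein changes gene expression in the SN. The AAV-αSyn vector was injected at 5.2e10 vector genomes (vg) per µL and the AAV-Null vector at 5.3e9 vg per µL, so titre and transgene cannot be told apart in any difference below. The promoter that drives the transgene is not given in the sources used here, and the labels name no other genetic change.

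Neuropeptides are cut from larger precursor proteins by convertases in the secretory pathway, stored in dense-core vesicles and released to act on receptors coupled to G proteins. Striatal projection neurons use them beside GABA: those of the direct pathway to the SN make substance P and dynorphin, and those of the indirect pathway make enkephalin. Their peptides travel along the axon to the SN while the messenger RNA stays largely in the cell body, so RNA from the SN is read mostly from cells whose bodies lie in the dissected piece.

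Each spot's fluorescence is given as a log2 intensity after quantile normalization, in arbitrary units that can be compared between arrays for 1 probe but not between probes. The share of spots called well above background was 74.8% to 77.5% per array, and the median raw intensity lay between 261 and 338. All 8 arrays lie on 1 slide. *Th*, the rate-limiting enzyme of dopamine synthesis and the marker of the target cells, was above background on all 8 arrays, at 16.30 to 16.70 on the AAV-Null and 15.88 to 16.01 on the AAV-αSyn arrays. *Slc17a7*, the vesicular glutamate transporter of cortical neurons, was above background on 1 AAV-Null and 2 AAV-αSyn arrays. Markers of neighbouring regions varied between arrays: *Pmch*, a peptide of the lateral hypothalamus, was 14.32 on AAV-Null 4 and between 8.66 and 9.81 on the other arrays. In a piece of tissue, fewer cells of a type and less RNA per cell cannot be told apart.

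Several of these genes are textbook targets of cAMP signalling, so their promoters were searched for the cAMP response element TGACGTCA, for its core TGACG and for the TATA box TATAAA, on both strands. The RefSeq table of the rat assembly GRCr8 holds windows of 250 bases before and 50 after the annotated start for 8 of the 10 genes, all but *Penk* and *Crh*. The stretches below run from 120 bases before to 30 after the start, 5′ to 3′ on the gene's strand, for the 3 genes with an unadjusted p under 0.05 (*Sst*, *Gal*, *Pdyn*) and for *Vip*, whose element differs from the full one. Capitals mark the 3 motifs.
Sst, GRCr8 chr11:90461426-90461575, plus strand: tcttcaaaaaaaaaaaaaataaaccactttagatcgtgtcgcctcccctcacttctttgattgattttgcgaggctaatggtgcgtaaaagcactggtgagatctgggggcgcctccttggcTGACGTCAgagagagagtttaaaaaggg
Gal, GRCr8 chr1:210084543-210084692, minus strand: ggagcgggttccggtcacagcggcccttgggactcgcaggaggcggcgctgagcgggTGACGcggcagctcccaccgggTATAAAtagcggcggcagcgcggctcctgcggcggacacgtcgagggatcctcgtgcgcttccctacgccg
Pdyn, GRCr8 chr3:137366474-137366623, minus strand: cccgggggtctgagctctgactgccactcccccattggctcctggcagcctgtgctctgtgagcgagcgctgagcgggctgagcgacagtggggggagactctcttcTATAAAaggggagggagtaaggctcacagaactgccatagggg
Vip, GRCr8 chr1:44470360-44470509, plus strand: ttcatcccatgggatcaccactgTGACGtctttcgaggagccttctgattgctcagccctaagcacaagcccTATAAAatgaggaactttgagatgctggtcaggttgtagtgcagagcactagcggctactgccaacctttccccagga

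Of the 8 promoters, only that of *Sst* holds the full cAMP response element, which begins at base 3 after the annotated start and which 1.83% of the 33469 windows in the table hold. The core TGACG, which is also part of the full element, occurs in 5 of the 8 windows (*Sst*, *Gal*, *Vip*, *Nts* and *Tac1*) and in 21.2% of all windows. It begins 63 bases before the start in *Gal* and 97 bases before it in *Vip*. The TATA box letters occur in 4 of the 8 windows (*Gal*, *Pdyn*, *Vip* and *Adcyap1*) and in 14.2% of all. The 3 genes of the list with a p under 0.05 therefore share none of these motifs in all 3 windows, and a match describes the letters only.

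Of the 10 genes, represented by their brightest probes, *Sst*, *Gal* and *Pdyn* had an unadjusted p under 0.05 in limma's test, all 3 higher in the AAV-αSyn group, and 0 of the 10 were lower at this threshold. Over the 33853 probes tested on the array, 3.31% were higher at this threshold and 5.64% passed it in either direction. After the Benjamini–Hochberg adjustment over all probes tested, 0 of the 10 genes had a p under 0.05, against 0.0148% (5 probes) of the whole array. *Sst* alone had groups of arrays that did not overlap, as had 3.83% of the probes tested. The log2 fold change was above 0 for 7 genes and below 0 for 3, with a median of 0.12, beside a median of 0.01 and 52.41% above 0 over all probes. The range over the 10 genes was −0.40 for *Adcyap1* to 0.94 for *Gal*. All 13 probes passed the filter on dim probes, and 12 of them were above background on all 8 arrays.

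**Figure D1:**
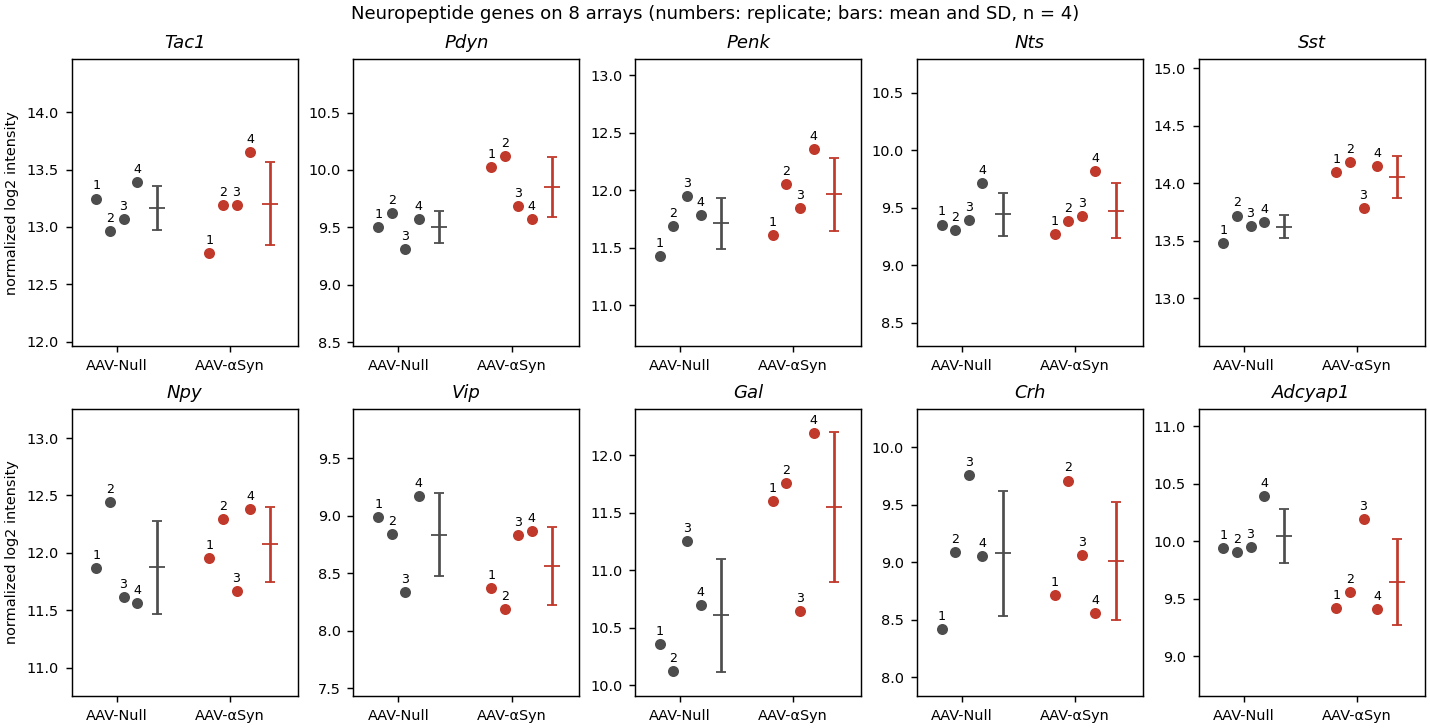
Normalized log2 intensity (arbitrary units, vertical axis, each panel spanning 2.5 log2 units) of the 10 neuropeptide genes on the AAV-Null (grey) and AAV-αSyn (red) arrays, with replicate numbers at the points and bars for the mean and SD (n = 4). The groups separate for *Sst*, while AAV-αSyn replicate 3 lies within the AAV-Null values for *Gal* and AAV-αSyn replicate 4 does for *Pdyn*.

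Among the peptides of striatal projection neurons, *Pdyn* had an unadjusted p under 0.05 and *Tac1* and *Penk* did not. *Pdyn* encodes prodynorphin, the precursor of the dynorphins, which act on kappa opioid receptors. Its log2 intensity was 9.51, 9.63, 9.31 and 9.58 on AAV-Null arrays 1 to 4 and 10.02, 10.12, 9.69 and 9.57 on AAV-αSyn arrays 1 to 4. Of the AAV-αSyn arrays, 3 lay above every AAV-Null array and replicate 4 lay among them. *Pdyn* was 1.27-fold higher on average, a log2 fold change of 0.35 (standard error 0.14, 95% confidence interval 0.02 to 0.67), with an unadjusted p = 0.0391 and an adjusted p = 0.853 by limma. An exact permutation test over the 70 splits of the arrays gave p = 0.0857 (two-sided), where 0.0286 is the smallest that 4 arrays against 4 allow. The unadjusted p of *Pdyn* was above 0.05 without AAV-Null replicate 1 (0.0698), 3 (0.0949) or 4 (0.0536) and without AAV-αSyn replicate 1 (0.0990) or 2 (0.104), and it was 0.105 with arrays weighted by quality.

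*Tac1* encodes the precursor of substance P and neurokinin A. Its log2 intensity was 13.25, 12.96, 13.07 and 13.39 on AAV-Null arrays 1 to 4 and 12.77, 13.19, 13.19 and 13.65 on AAV-αSyn arrays 1 to 4. The lowest and the highest of the 8 values were both AAV-αSyn arrays, replicates 1 and 4. Its log2 fold change was 0.03 (95% confidence interval −0.39 to 0.46, p = 0.864 by limma, exact permutation p = 0.886), and differences of any size inside this interval are compatible with these arrays.

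*Penk*, which encodes proenkephalin, the precursor of the enkephalins, was 11.42, 11.69, 11.95 and 11.79 on AAV-Null arrays 1 to 4 and 11.61, 12.05, 11.84 and 12.36 on AAV-αSyn arrays 1 to 4. AAV-αSyn replicates 2 and 4 were above every AAV-Null array and the other 2 were not. The log2 fold change of 0.25 (95% confidence interval −0.15 to 0.66) had p = 0.186 by limma and 0.257 by the exact permutation test. A second *Penk* probe was above background on only 1 AAV-Null and 2 AAV-αSyn arrays, and its log2 fold change of 0.54 (p = 0.0885 by limma, exact permutation p = 0.114) compares signals near background.

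Other genes of striatal projection neurons were set beside these peptides. Of the 9 listed markers tested, 0 were higher and 2 lower at an unadjusted p under 0.05, and 2.32% of all probes tested were lower at this threshold. Their median log2 fold change was −0.09. Their summed intensity did not overlap between the groups, at 22660 to 26270 on AAV-Null and 18120 to 21090 on AAV-αSyn arrays. Without *Drd2* the sums of the other 8 overlapped, at 11850 to 15830 and 10730 to 12040. The part of these neurons in the values of the peptides was not tested. *Drd1*, the dopamine receptor of the direct pathway, ranged from 7.75 to 8.52 over the AAV-Null and from 8.17 to 8.43 over the AAV-αSyn arrays, giving a log2 fold change of 0.11 (p = 0.529 by limma, exact permutation p = 0.629). *Ppp1r1b*, which encodes DARPP-32, had a log2 fold change of −0.30 (p = 0.273 by limma, exact permutation p = 0.400). One of the lower genes was *Drd2* (−0.33, p = 0.00654 by limma, exact permutation p = 0.0286), which dopaminergic neurons also express as their autoreceptor. The other was *Syndig1l* (−0.38, p = 0.0127 by limma, exact permutation p = 0.0571). *Gpr6* was above background on no array and was not tested.

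*Nts* encodes neurotensin, a peptide that acts on dopaminergic neurons and is made by some of them. It was 9.36, 9.30, 9.39 and 9.72 on AAV-Null arrays 1 to 4 and 9.27, 9.38, 9.43 and 9.82 on AAV-αSyn arrays 1 to 4. In both groups 3 arrays lay close together and replicate 4 was higher. The groups differed by a log2 fold change of 0.03 (95% confidence interval −0.30 to 0.36, p = 0.825 by limma, exact permutation p = 0.714), less than the spread within either group.

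*Sst*, *Npy* and *Vip* mark inhibitory neurons in much of the forebrain and are also expressed in the midbrain. *Sst* encodes somatostatin, which inhibits neurons through receptors coupled to inhibitory G proteins. Its log2 intensity was 13.48, 13.72, 13.63 and 13.66 on AAV-Null arrays 1 to 4 and 14.10, 14.18, 13.78 and 14.15 on AAV-αSyn arrays 1 to 4. The 4 AAV-αSyn values were all above the 4 AAV-Null values, and AAV-αSyn replicate 3 was nearest to them. Group means were 13.62 ± 0.10 (SD, n = 4) for AAV-Null and 14.05 ± 0.18 (SD, n = 4) for AAV-αSyn. This is a log2 fold change of 0.43 (standard error 0.11, 95% confidence interval 0.18 to 0.68), which is 1.35-fold. Limma gave p = 0.00382 before and 0.605 after the adjustment over all probes, and the exact permutation test gave 0.0286, the smallest it allows.

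The *Sst* probe was printed 10 times on each array, of which between 6 and 10 spots per array were not marked as outliers. The SD of these spots within an array was between 0.017 and 0.050 log2 units, while the array means of the groups differed by 0.43. Spots of 1 array share a sample and add no replicate. With the outlier spots kept, the log2 fold change of *Sst* was again 0.43 (unadjusted p = 0.00393, adjusted p = 0.616 by limma). Over 12 processing alternatives the value lay between 0.37 and 0.44, and with each array left out in turn between 0.38 and 0.52, with an unadjusted p under 0.05 in every one of these fits. The adjusted p was 0.247 or higher in each of them.

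**Figure D2:**
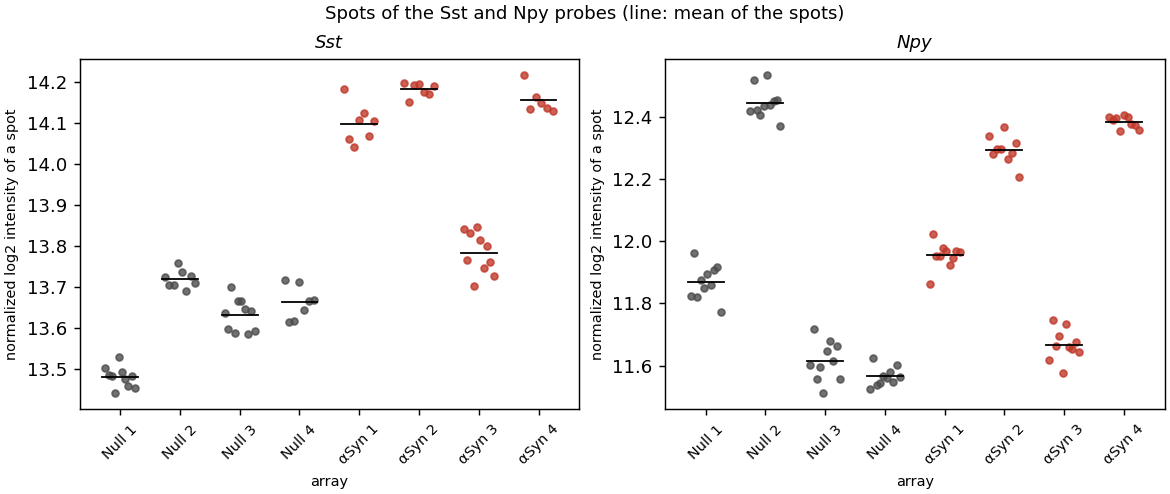
Normalized log2 intensity (arbitrary units) of each spot of the *Sst* and *Npy* probes on the 4 AAV-Null (grey) and 4 AAV-αSyn (red) arrays, outlier spots left out, with a line at the mean of the spots. Spots within an array scatter far less than arrays of 1 group do, and the array means of *Sst* separate by group while those of *Npy* do not.

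*Npy*, which encodes neuropeptide Y, was also measured by 10 spots per array, whose SD within an array was between 0.019 and 0.063. Its log2 intensity was 11.87, 12.44, 11.61 and 11.57 on AAV-Null arrays 1 to 4 and 11.95, 12.29, 11.67 and 12.38 on AAV-αSyn arrays 1 to 4. The highest of the 8 values was AAV-Null replicate 2, and all AAV-αSyn arrays lay within the AAV-Null range. A log2 fold change of 0.20 separated the group means (95% confidence interval −0.33 to 0.73, p = 0.410 by limma, exact permutation p = 0.457). *Npy* and *Sst* are often made by the same inhibitory neurons of the forebrain, but whether their changes differ was not tested here.

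*Vip* encodes vasoactive intestinal peptide, which raises cAMP in its target cells. It was 8.99, 8.84, 8.34 and 9.18 on AAV-Null arrays 1 to 4 and 8.37, 8.19, 8.83 and 8.87 on AAV-αSyn arrays 1 to 4. AAV-αSyn replicate 2 was the lowest of the 8 arrays and the other AAV-αSyn arrays lay within the AAV-Null range. Its mean was lower by a log2 fold change of −0.27 (95% confidence interval −0.78 to 0.23, p = 0.249 by limma, exact permutation p = 0.286).

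General markers of GABAergic neurons were set beside these genes. Of the 7 markers reported here, 6 had a log2 fold change above 0, as had 52.41% of all probes tested, and the median of the 7 was 0.15. Their range was −0.07 to 0.31, the highest being *Sox14*. *Gad1*, which makes GABA, had a log2 fold change of 0.15 (p = 0.106 by limma, exact permutation p = 0.0857). The summed intensity of these markers was 49330 to 66380 on the AAV-Null and 57950 to 72110 on the AAV-αSyn arrays, and its part in the value of *Sst* was not tested.

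*Gal* had the largest log2 fold change of the 10 genes. It encodes galanin, which inhibits neurons and is made by many serotonergic neurons of the rat raphe and by noradrenergic neurons of the *locus coeruleus*. Its log2 intensity was 10.36, 10.12, 11.25 and 10.70 on AAV-Null arrays 1 to 4 and 11.60, 11.76, 10.64 and 12.19 on AAV-αSyn arrays 1 to 4. Of the AAV-αSyn arrays, 3 were above every AAV-Null array and replicate 3 was below 2 of them. *Gal* was 1.92-fold higher on average, a log2 fold change of 0.94 (standard error 0.36, 95% confidence interval 0.12 to 1.76), with p = 0.0294 before and 0.835 after the adjustment by limma and 0.0857 by the exact permutation test. With the row of the array on the slide, which is the replicate number, as a block, the same log2 fold change had an unadjusted p = 0.0710 and was not past 0.05. The unadjusted p was between 0.0515 and 0.0767 without AAV-Null replicate 1, 2 or 4 or AAV-αSyn replicate 1, 2 or 4. Without AAV-Null replicate 3 the log2 fold change was 1.16 (unadjusted p = 0.0148, adjusted p = 0.542 by limma), and without AAV-αSyn replicate 3 it was 1.24 (unadjusted p = 0.00287, adjusted p = 0.738).

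The serotonergic marker *Tph2* was set beside *Gal* array by array. *Tph2*, the brain enzyme of serotonin synthesis, was 8.32, 8.12, 10.61 and 8.99 on AAV-Null arrays 1 to 4 and 11.16, 11.51, 10.59 and 12.20 on AAV-αSyn arrays 1 to 4. The 8 arrays fell in the same order by *Tph2* as by *Gal* except that AAV-Null replicate 4 and AAV-αSyn replicate 3 changed places. The groups overlapped for *Tph2*, whose log2 fold change was 2.35 (unadjusted p = 0.00318, adjusted p = 0.600 by limma, exact permutation p = 0.0571). *Slc6a4*, the serotonin transporter, had a log2 fold change of 2.30 (unadjusted p = 0.0162, adjusted p = 0.760 by limma, exact permutation p = 0.0857). All 5 listed serotonergic markers had values above 0, as had 52.41% of all probes tested. At an unadjusted p under 0.05 in limma's test 2 of the 5 were higher, as were 3.31% of all probes tested. The median log2 fold change of the 5 markers was 1.47. Their summed intensity was 394 to 2171 on the AAV-Null and 1893 to 5621 on the AAV-αSyn arrays, and 3 of the 5 were above background on all 8 arrays. On AAV-αSyn replicate 1, where *Gal* was 11.60, *Tph2* was above all 4 AAV-Null arrays, and *Slc6a4* (8.43) and *Fev* (5.11) were each above 3 of them. *Htr1a* (4.71) and *Slc17a8* (2.40) were at their lowest of the 8 arrays there, the latter under the dimmest signal above background on that array (3.36). The part of serotonergic neurons in the value of *Gal* was not tested.

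The noradrenergic marker *Dbh*, the enzyme that makes noradrenaline, was not well above background on any AAV-Null array and was so on AAV-αSyn replicates 2, 3 and 4. Its log2 intensity was 1.31, 6.27, 7.30 and 7.38 on AAV-αSyn arrays 1 to 4. Set against the dimmest signal that passed the background call on each AAV-Null array, the AAV-αSyn mean of *Dbh* was at least 5.42-fold higher. No p-value is given for this bound, since *Dbh* passed the filter on dim probes only through AAV-αSyn arrays. *Slc6a2*, the noradrenaline transporter, was above background on 2 AAV-Null arrays and 1 AAV-αSyn array, and *Phox2a* on none. The summed intensity of the 2 tested noradrenergic markers was 15.7 to 22.1 on the AAV-Null and 9.28 to 178 on the AAV-αSyn arrays, and the part of noradrenergic cells in the value of *Gal* was not tested.

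**Figure D3:**
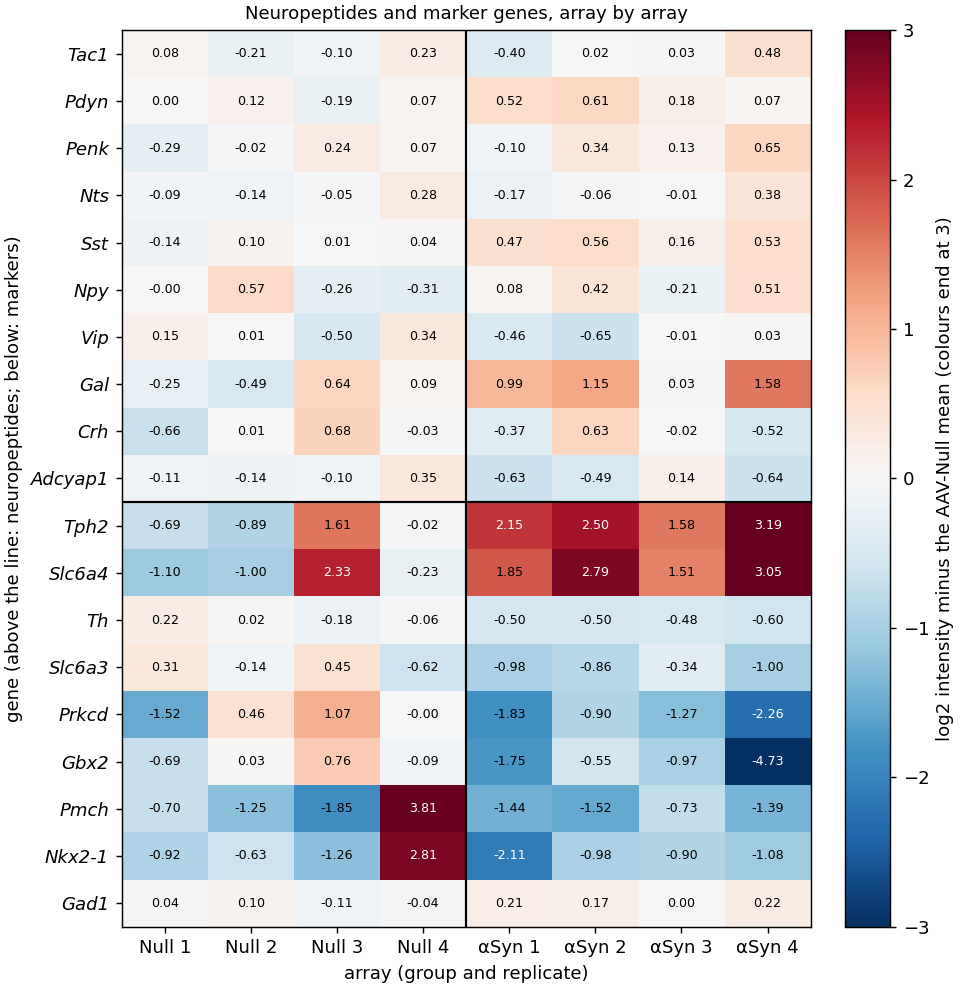
Difference of each array's log2 intensity from the mean of the 4 AAV-Null arrays, for the 10 neuropeptide genes (above the line) and markers of serotonergic (*Tph2*, *Slc6a4*), dopaminergic (*Th*, *Slc6a3*), thalamic (*Prkcd*, *Gbx2*), hypothalamic (*Pmch*, *Nkx2-1*) and GABAergic neurons (*Gad1*), with numbers and colours in log2 units and colours ending at 3. *Gal* and *Tph2* are high on AAV-Null 3 and on AAV-αSyn 1, 2 and 4, they part on AAV-αSyn 3, where *Tph2* is at 1.58 and *Gal* at 0.03, and *Pmch* and *Nkx2-1* stand out on AAV-Null 4.

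*Crh* and *Adcyap1* encode peptides of the stress axis, corticotropin-releasing hormone and the pituitary adenylate cyclase-activating polypeptide PACAP. *Crh* was 8.42, 9.09, 9.76 and 9.05 on AAV-Null arrays 1 to 4 and 8.71, 9.71, 9.06 and 8.56 on AAV-αSyn arrays 1 to 4. The AAV-αSyn arrays all lay within the AAV-Null range. The highest arrays of the 2 groups were AAV-Null 3 and AAV-αSyn 2, and AAV-Null 1 was the lowest of all 8. Its log2 fold change was −0.07 (95% confidence interval −0.82 to 0.69, p = 0.843 by limma, exact permutation p = 0.886). The value of this *Crh* probe minus that of a second one was between −0.06 and 0.08 on each array. The second probe gave −0.14 (p = 0.664 by limma, exact permutation p = 0.686), so the differences between arrays of 1 group were seen by both probes.

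*Adcyap1* was 9.94, 9.90, 9.95 and 10.40 on AAV-Null arrays 1 to 4 and 9.41, 9.56, 10.19 and 9.41 on AAV-αSyn arrays 1 to 4. Of the AAV-αSyn arrays, 3 were below every AAV-Null array, and replicate 3 was above 3 of them. On average it was lower by a log2 fold change of −0.40 (standard error 0.20, 95% confidence interval −0.86 to 0.05, p = 0.0746 by limma, exact permutation p = 0.114). A second probe, whose accession is a predicted transcript, also had AAV-Null replicate 4 highest and AAV-αSyn replicate 3 highest in its group, with a log2 fold change of −0.31 (p = 0.167 by limma, exact permutation p = 0.229). Without AAV-αSyn replicate 3 the value was −0.59 (unadjusted p = 0.00390, adjusted p = 0.738 by limma), and without AAV-Null replicate 4 it was −0.29 (unadjusted p = 0.186, adjusted p = 0.696).

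Genes of hypothalamic neurons were set beside *Adcyap1*, whose highest array was AAV-Null replicate 4. Of the 11 listed, 5 were highest on this array (*Pmch*, *Hdc*, *Nkx2-1*, *Hcrt* and *Sim1*) and 3 were at their lowest of the 8 arrays there (*Avp*, *Oxt* and *Pomc*). The summed intensity of the 11 genes was 2631 to 23640 on the AAV-Null and 2633 to 3160 on the AAV-αSyn arrays, and 0 of the 11 had an unadjusted p under 0.05 in limma's test. *Pmch* was 14.32, *Hdc* 9.63, *Nkx2-1* 8.54 and *Hcrt* 7.42 on this array. The highest values on the other 7 arrays were 9.81, 7.18, 5.10 and 6.87. Most of the summed intensity on this array was that of *Pmch*, since the other 10 genes summed to 3209 there and to between 2093 and 2478 on the other 7 arrays. The part of hypothalamic tissue in the value of *Adcyap1* was not tested.

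Among the receptors of these peptides, *Ntsr1*, *Vipr2* and *Sstr5* were lower in the AAV-αSyn group. Of 27 receptors and binding proteins tested, these 3 were lower and 0 higher at an unadjusted p under 0.05, 0 passed the adjustment in limma's test, and the median log2 fold change was 0.08. Lower probes at this threshold made up 2.32% of all those tested. Groups that did not overlap were seen for *Ntsr1* and *Vipr2*, 2 of the 27, and for 3.83% of the probes tested. *Ntsr1*, the high-affinity neurotensin receptor carried by dopaminergic neurons, was 11.15, 10.92, 10.79 and 11.10 on AAV-Null arrays 1 to 4 and 10.26, 10.43, 10.68 and 10.30 on AAV-αSyn arrays 1 to 4. The groups did not overlap, AAV-αSyn being the lower, and the log2 fold change was −0.57 (standard error 0.12, p = 0.00152 before and 0.555 after adjustment by limma, exact permutation p = 0.0286). Its ligand *Nts* had a log2 fold change of 0.03 on the same arrays, and the difference between ligand and receptor was not tested.

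*Vipr2*, a receptor of both VIP and PACAP, was 9.64, 10.11, 10.68 and 10.04 on AAV-Null arrays 1 to 4 and 9.38, 9.55, 9.44 and 9.50 on AAV-αSyn arrays 1 to 4. These groups also did not overlap, and the AAV-αSyn arrays lay within 0.175 of each other while the AAV-Null arrays spread over 1.04. *Vipr2* had a log2 fold change of −0.65 (standard error 0.20, unadjusted p = 0.0103, adjusted p = 0.714 by limma, exact permutation p = 0.0286). *Sstr5*, a somatostatin receptor, was lower by less, at −0.30 (unadjusted p = 0.0360, adjusted p = 0.850 by limma, exact permutation p = 0.0857), with groups that overlapped. The values of *Ntsr1* lay between −0.66 and −0.52 and those of *Vipr2* between −0.81 and −0.46 over the 12 processing alternatives and the 8 omissions of an array, with an unadjusted p under 0.05 in each. Over the 12 alternatives the value of *Sstr5* ran from −0.40 with array weights to −0.10 with normexp background correction, and it was not past this threshold in 5 of them. It also missed the threshold without AAV-Null replicate 2, 3 or 4 or AAV-αSyn replicate 2 or 3, and in these 5 omissions its values lay between −0.31 and −0.21 and its unadjusted p between 0.0521 and 0.0986.

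The main receptors of the other peptides did not pass the test. *Oprk1*, the dynorphin receptor, had a log2 fold change of 0.02 (95% confidence interval −0.58 to 0.62), and *Galr1*, a galanin receptor, of 0.26 (−0.16 to 0.69). *Sstr2*, the widespread somatostatin receptor of the brain, had 0.17 (−0.20 to 0.53). The substance P receptor *Tacr1* had 0.16, the enkephalin receptor *Oprd1* −0.11, the neuropeptide Y receptor *Npy1r* −0.38, the CRH receptor *Crhr1* 0.11 and the PACAP receptor *Adcyap1r1* −0.14, with p-values between 0.142 and 0.435 by limma. For *Sst*, *Gal* and *Pdyn*, the 3 peptides with higher values, the intervals of these receptors thus all held 0.

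**Figure D4:**
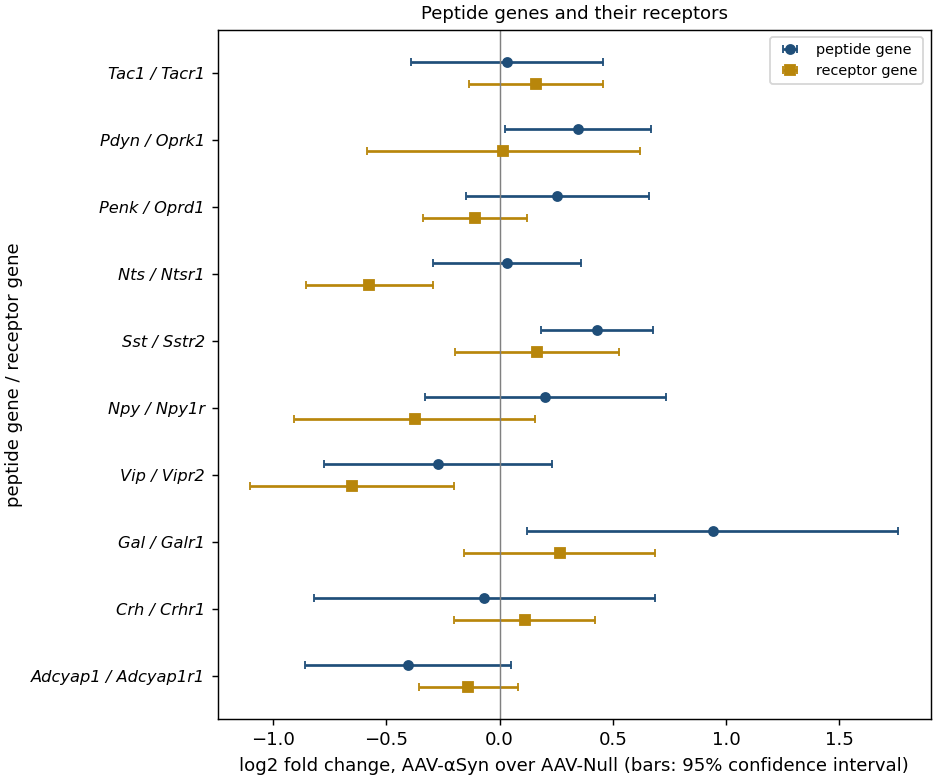
Log2 fold change (AAV-αSyn over AAV-Null, horizontal axis) with its 95% confidence interval from limma for each peptide gene (blue circles) and its main receptor (gold squares), n = 4 arrays per group. The intervals of *Sst*, *Gal* and *Pdyn* lie above 0 and those of *Ntsr1* and *Vipr2* below it.

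The lower receptors stood beside lower dopaminergic markers. All 10 tested markers of dopaminergic neurons had log2 fold changes below 0, with a median of −0.31, while 52.41% of all probes tested were above 0. At an unadjusted p under 0.05 in limma's test 4 were lower, as were 2.32% of all probes tested. These 4 were *Th* (−0.52, adjusted p = 0.484 by limma), *Pitx3* (−0.78, adjusted p = 0.747), *Slc6a3* (−0.79, adjusted p = 0.747) and *Ddc* (−0.25, adjusted p = 0.835). After the adjustment 0 of the 10 had a p under 0.05. The summed intensity of the 10 markers was 156100 to 199300 on the AAV-Null and 122400 to 132800 on the AAV-αSyn arrays, groups that did not overlap. This sum is weighted to bright genes, of which *Th* was the brightest, and without *Th* the sums of the groups overlapped. The mean log2 intensity of the 10, which weighs each gene alike, was 11.48 to 11.87 on AAV-Null and 11.14 to 11.39 on AAV-αSyn arrays. Markers of the thalamus were lower too. *Prkcd* had a log2 fold change of −1.56 (unadjusted p = 0.0203, adjusted p = 0.785 by limma, exact permutation p = 0.0857). *Gbx2* had one of −2.00 (unadjusted p = 0.0463, adjusted p = 0.876 by limma, exact permutation p = 0.0571), and all 5 tested genes of this list had values below 0. The summed intensity of the thalamic list was 18590 to 32690 on AAV-Null and 15980 to 22150 on AAV-αSyn arrays. *Vipr2* was highest on AAV-Null replicate 3 and *Prkcd* was also highest there, at 13.54. The parts of these cells in the values of *Ntsr1* and *Vipr2* were not tested.

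The shared machinery of peptide secretion gave no gene past the test. Of 12 genes for processing and storage, which include the convertases *Pcsk1* and *Pcsk2* and the granins, 0 had an unadjusted p under 0.05 in limma's test, and their log2 fold changes lay between −0.23 and 0.23 with a median of −0.04. Of 10 peptidases that break neuropeptides down, 0 had an unadjusted p under 0.05, with values between −0.19 and 0.18 and a median of −0.03. Cortical and hippocampal markers (6 tested) had 0 genes past this threshold, as had the glial markers reported here (9 tested), in limma's test. All 6 of the former had log2 fold changes above 0, with a median of 0.19, and 4 of them were above background on all 8 arrays. Of the 9 glial markers 7 were above 0, with a median of 0.06.

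The neuropeptide genes varied more between arrays of 1 group than most probes did. The SD within groups, pooled over both, was above the median of all probes tested (0.189) for 9 of the 10 genes, and it ran from 0.149 for *Sst* to 0.578 for *Gal*. For *Gal* 93.6% and for *Crh* 92.4% of the probes tested had a lower SD, against 35.7% for *Sst*. A log2 fold change of 0.43 in *Sst* was therefore 2.90 times its SD within groups, while one of 0.94 in *Gal* was 1.63 times its own.

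**Figure D5:**
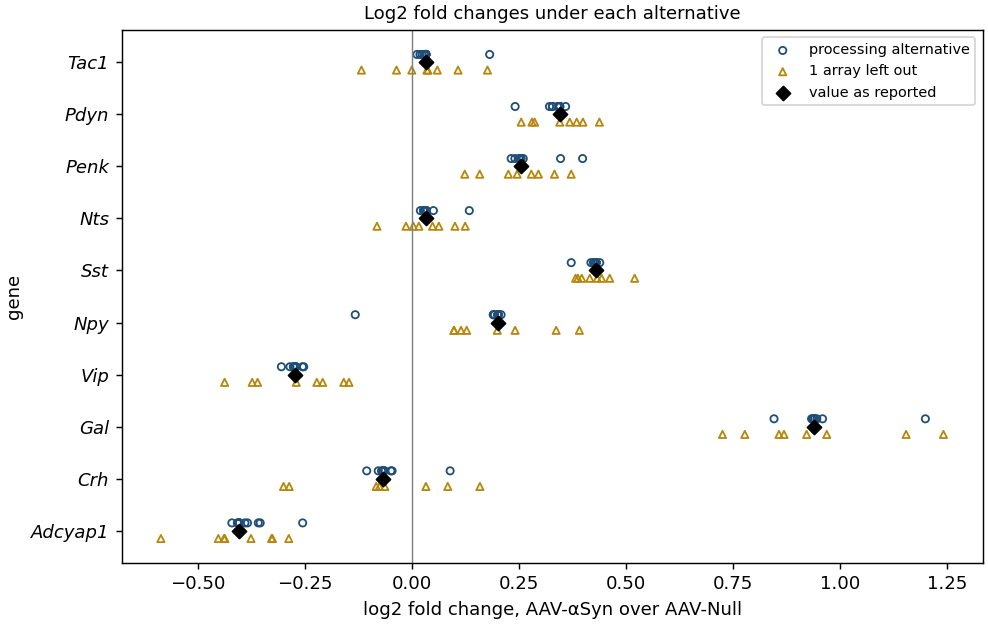
Log2 fold change (AAV-αSyn over AAV-Null, horizontal axis) of each neuropeptide gene as reported (black diamonds), under the processing alternatives (blue circles) and with 1 array left out at a time (gold triangles). *Sst*, *Gal*, *Pdyn* and *Penk* stay above 0 and *Vip* and *Adcyap1* below 0 in all of these fits, while *Tac1*, *Nts*, *Npy* and *Crh* cross 0 in at least 1.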

How the data were processed

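RNA from the ipsilateral SN, microdissected from each brain, was labelled with Cy3 and hybridised to Agilent rat arrays in 1 colour, 1 sample per array. The authors deposited for each spot an intensity from which Feature Extraction had subtracted a background (12.0.3.2 in the file headers, 11.5.1.1 in the submitters' processing notes). A second file deposited by the authors, quantile-normalized log2 values, served as an alternative. The methods state 3 arrays per group where the series holds 4, and all 8 were used.

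Control spots and outlier spots were left out, and a probe was tested where at least 0.5 of its spots were well above background on at least 1 array. Intensities were taken to log2 and quantile normalized before the spots of a probe were averaged, with R 4.3.3, limma 3.58.1 and version 1.17.8 of the data.table package. The groups were compared by lmFit and eBayes, two-sided and without covariates, with Benjamini–Hochberg adjustment over all 33853 probes tested. Exact permutation tests took the difference of group means over all 70 splits. Each gene is represented by its brightest probe. Quantile normalization gives every array 1 distribution, so a shift shared by most probes would not be seen. Symbols came from RefSeq (assembly GRCr8), which paired a name with 21229 of the 45598 probes. The procedure was tested on simulated data.

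The members and the 12 other gene lists were chosen with earlier results of these data known. The text names all 10 members with every probe, the main receptor of each, the defining markers, and of every other list at most the 4 genes with the smallest p whose groups do not overlap or whose unadjusted p is under 0.05. Genes outside this rule (*Pcsk1*, *Pcsk2*, *Hdc*, *Nkx2-1*, *Sim1*, *Avp*, *Oxt*, *Pomc*, *Sox14*, *Fev*, *Htr1a*, *Slc17a8*, *Gpr6*, *Slc6a2* and *Phox2a*) were named after their values were seen. Of the listed genes, 5 have no probe with such a name, and 2 that the rule or the lists would include are not reported here and are left out of the list counts and sums. Alternatives were 75th percentile scaling, cyclic loess, normexp with an offset of 50 on median signals, no filter or a filter at 4 or 8 arrays, the deposited matrix, an intensity trend, array weights, the replicate number or the side of the slide as a block, the mean of a gene's probes, and each array left out. Keeping outlier spots, and running all alternatives for receptors and some markers, were added after seeing the data.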

Additional observations from a re-analysis of the deposited data

Results flagged for a closer look

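An array was counted as set apart when it lay far from the other 3 of its group, relative to their whole range. This held in 3 of 76 groups, where chance gives about 3.8. For *Adcyap1*, AAV-Null replicate 4 was at 10.40 and the other 3 at 9.90 to 9.95, so the gap took a share of 0.908 of the range. For *Oprd1*, AAV-αSyn replicate 4 was at 6.49 and the other 3 at 6.77 to 6.80, a share of 0.907. For *Pmch*, AAV-αSyn replicate 3 was at 9.78 and the other 3 at 8.99 to 9.12, a share of 0.832.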

How the results depend on the processing

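*Sst* was higher, at an unadjusted p under 0.05, under all 12 processing alternatives and all 8 omissions of an array. The direction of *Gal*, *Pdyn*, *Penk*, *Vip* and *Adcyap1* was also kept under all of these, while the unadjusted p of *Pdyn* rose to 0.105 with array weights. With array weights *Npy* was −0.13 and *Crh* 0.0894, opposite in sign to the values reported. With 1 array left out, *Tac1* lay between −0.12 and 0.18, *Nts* between −0.0816 and 0.12 and *Crh* between −0.30 and 0.16. The number of the 10 genes with an unadjusted p under 0.05 was 3, and it was 2 with array weights, 2 with the replicate block and 1 to 4 with 1 array left out. The number of receptors lower at this threshold was 3, and 2 to 4 with 1 array left out, and with array weights 10 of the 27 receptors passed it in either direction, 5 lower and 5 higher, in a fit where 13.3% of all probes tested passed it, against 5.64% as reported. The number of probes past the adjustment was 5 over the whole array, 10 with array weights, 3 with the side of the slide as a block and 3 to 5 with 1 array left out. The replicate number is the row of the array on the slide. As a block it left 0 probes past the adjustment in limma's test (2218 at an unadjusted p under 0.05) and gave *Gal* an unadjusted p = 0.0710 and an adjusted p = 0.787. Deviations of arrays with the same number correlated at 0.144, 0.267, 0.0406 and −0.00217 for replicates 1 to 4, and not every array correlated best with its own number, so the numbers were not taken as pairs. Signal over background did not limit the 10 genes, whose brightest probes were above background on all 8 arrays, and 4 arrays per group left 95% intervals between 0.49 and 1.64 log2 units wide.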
